A study of Mus musculus with 7 samples.

Results

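The collagen genes of mouse glioma tissue were described across 2 kinds of tumor. They were taken as every gene of the deposited expression table whose symbol reads Col, a number, the letter a and a number, which gave 44 of 19257 genes. By protein type, 11 were fibrillar, 6 were basement membrane collagens (the type IV chains) and 27 were of other types. A mean of at least 10 normalized counts over the 7 libraries was required for a test, and 39 of the 44 passed (11 fibrillar, 5 type IV and 23 other) among 14782 genes tested. The 5 that did not pass were Col4a4, Col6a4, Col6a6, Col10a1 and Col17a1.

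Bulk RNA-Seq was made from endpoint tumor tissue of mouse brains, 1 brain per library. In 3xCR tumors (3 libraries, genotype control in the labels, replicates 2 to 4), progenitor cells along the lateral ventricle were electroporated in utero with 1 construct carrying Cas9 and its guides, among which were those for the tumor suppressors Nf1 and Trp53. GPC6 tumors (4 libraries, replicates 1 to 4) carried the same construct and also overexpressed GPC6, a glypican that glia secrete, from a piggyBac transposon, which also served for the GFP label. Thus both groups were Cas9 tumors, no library was of tumor-free brain, and each sample was a piece of tissue with tumor and host cells together. Mice of both sexes and of the CD-1 and C57BL/6 backgrounds were used in the study, and sex, background and age at the endpoint are not given per library in the sources used here.

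Collagens are proteins whose chains wind around each other into a long helix. Fibrillar types such as I, III and V assemble into the fibers of connective tissue, which in the brain lie mainly in the meninges and around larger vessels, whereas type IV forms the sheet-like network of the basement membrane around every capillary. Types VI, XVI and XVIII and others link fibers, membranes and cell surfaces, and several carry receptors' binding sites or are themselves anchored in the cell membrane.

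Libraries held 7197692 to 18879762 reads on genes, so that a count of 0 allows up to 1.64 to 4.64 normalized counts. Values of a group are listed in the order of its replicate numbers, which start at 2 in 3xCR. Normalized counts of Gpc6 itself were 217, 226 and 126 in 3xCR and 675, 263, 3434 and 5084 in GPC6. GPC6 replicate 2 was the closest of its group to the 3xCR libraries. The species of the overexpressed sequence is not given in the sources used here, so these counts may not measure it in full. The tissue label brain and the cell type label neural were set against markers: the summed normalized counts of 13 pan-neuronal genes ran from 8202 to 67112, those of 10 astrocyte genes from 15464 to 68089, those of 10 oligodendrocyte precursor genes from 22690 to 104343, and those of 12 proliferation genes from 726 in GPC6 replicate 1 to 15553 in GPC6 replicate 4. Pairwise correlations of log2(normalized count + 1) across genes lay between 0.643 and 0.951.

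1 library stood apart in the collagens. 3xCR replicate 4 was the highest of the 7 libraries for 21 of the 39 tested collagen genes (53.8%), against 3528 of 14782 genes (23.9%) in all. Its value was at least 5 times that of the next library for 8 collagen genes (20.5%), against 0.737% of all genes tested, and no other library reached this margin for any tested collagen gene. These 8 were Col1a1, Col1a2, Col3a1, Col5a1, Col6a1, Col6a2, Col6a3 and Col7a1. At the other end, GPC6 replicate 1 was lowest for 14 of the 39 (35.9%), near its 31.3% of all genes tested. GPC6 replicate 4 was lowest for 12 (30.8%), against 15.6% of all genes tested. Group values are therefore given with and without 3xCR replicate 4. The heat map of the collagen genes shows this column against the others.

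**Figure D1:**
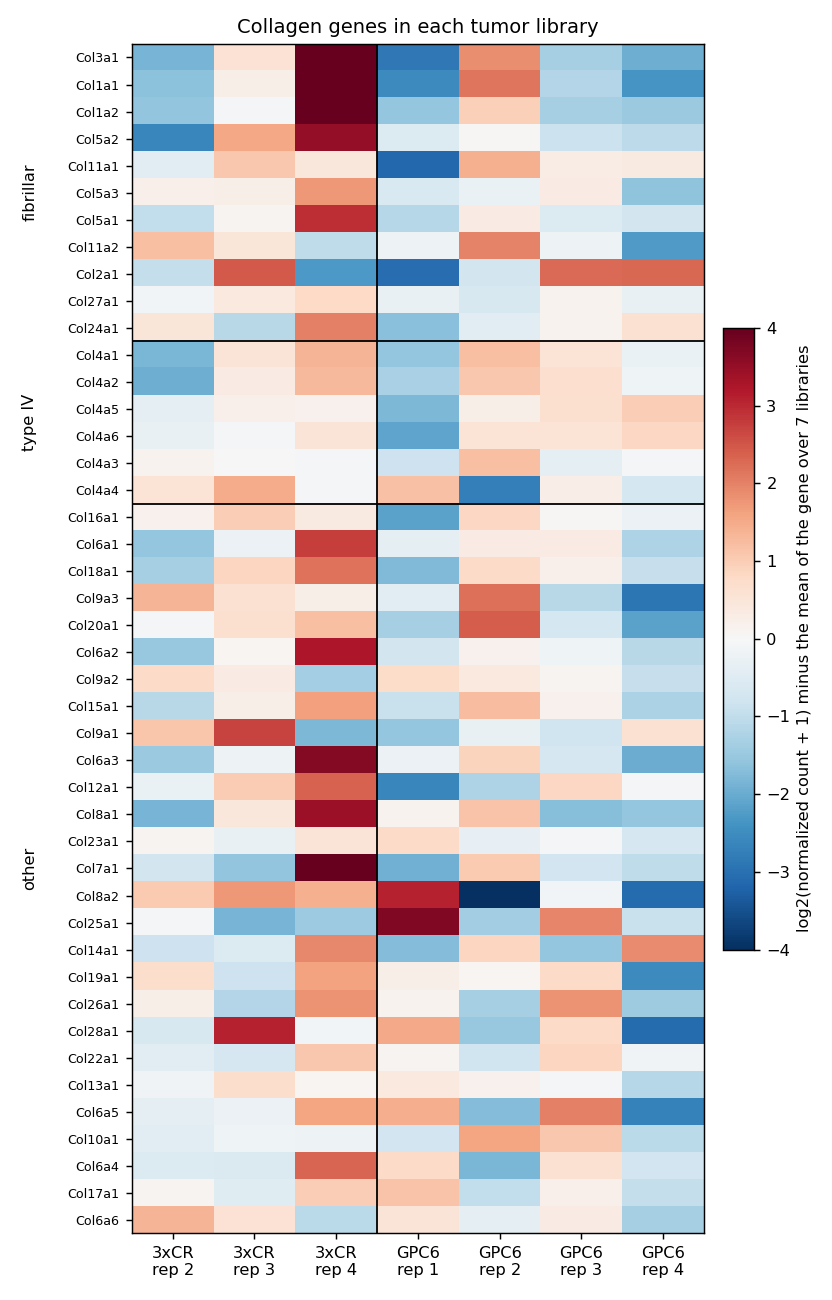
Heat map of the 44 collagen genes (rows, in the order fibrillar, type IV and other, each by mean level per kilobase) in the 7 libraries (columns, 3xCR left of the line and GPC6 right of it). Color is log2(normalized count + 1) minus the mean of the gene over the libraries, shown from -4 to 4. 3xCR replicate 4 is the reddest library in the rows of Col1a1, Col1a2, Col3a1, Col5a1, Col5a2, Col6a1, Col6a2, Col6a3, Col7a1 and Col8a1, among others, while the type IV rows are pale in most libraries.

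To show the DNA before members of this set, promoter windows were taken from RefSeq (GRCm38.p6), which held 35 of the 44 genes in 38 windows. The 150 bases before the transcription start are given for 1 chain each of types III, V and VI, all of which were highest in 3xCR replicate 4 by the margin above. They lie at chr1:45311388-45311537 (Col3a1, + strand), chr2:27886275-27886424 (Col5a1, + strand) and chr1:90843972-90844121 (Col6a3, - strand). The sequences are 5′ to 3′ along the gene and end at the base before the start. Capitals mark a match, on either strand, to the TATA motif (TATAAA), to a GC box (GGGCGG) or to the CCAAT motif, spelled as its name, and no matches overlapped in these windows.
Col3a1: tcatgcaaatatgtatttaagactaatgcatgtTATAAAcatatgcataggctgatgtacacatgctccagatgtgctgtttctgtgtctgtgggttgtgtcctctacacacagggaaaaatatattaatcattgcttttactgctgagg
Col5a1: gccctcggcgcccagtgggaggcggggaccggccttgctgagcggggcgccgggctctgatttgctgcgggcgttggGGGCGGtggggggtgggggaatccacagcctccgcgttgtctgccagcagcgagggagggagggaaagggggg
Col6a3: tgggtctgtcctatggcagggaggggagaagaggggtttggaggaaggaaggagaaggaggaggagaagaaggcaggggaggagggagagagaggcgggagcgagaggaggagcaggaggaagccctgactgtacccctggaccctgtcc
The TATAAA of Col3a1 began 117 bases before the start and the GGGCGG of Col5a1 began 73 bases before it, both on the strand of the gene. None of the 3 motifs was found on either strand in the window of Col6a3. Over all windows, GGGCGG or its complement was present in 19 of 38 collagen windows (50%) and in 28.6% of the 32851 windows of the table. TATAAA was present in 4 of 38 (10.5%) against 7.57%, and CCAAT in 8 of 38 (21.1%) against 24.5%. These matches are descriptions of the letters and were not tested.

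The fibrillar chains of types I and III, the main components of connective tissue fibers, ranged widely between libraries. Normalized Col3a1 counts (chr1:45311538-45349706, GRCm38, + strand) were 111, 601 and 19289 in 3xCR and 54.1, 1452, 159 and 102 in GPC6. Normalized Col1a1 counts (chr11:94936224-94953042, + strand) were 76.7, 286 and 9756 in 3xCR and 40.2, 1073, 106 and 46.3 in GPC6. Normalized Col1a2 counts (chr6:4504814-4541544, + strand) were 169, 486 and 16800.1 in 3xCR and 175, 984, 202 and 181 in GPC6. All 3 genes had the same highest libraries, 3xCR replicate 4 and then GPC6 replicate 2, and the groups overlapped for each. In 3xCR replicate 4 the counts were 13.3, 9.09 and 17.1 times those of the next library for Col3a1, Col1a1 and Col1a2, and these genes ranked 46, 130 and 55 among all genes there by normalized count. In the other 6 libraries Col3a1 ranked between 1531 and 12204. Col1a2 in GPC6 replicate 2 lay far from the other GPC6 libraries, which held 175 to 202.

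**Figure D2:**
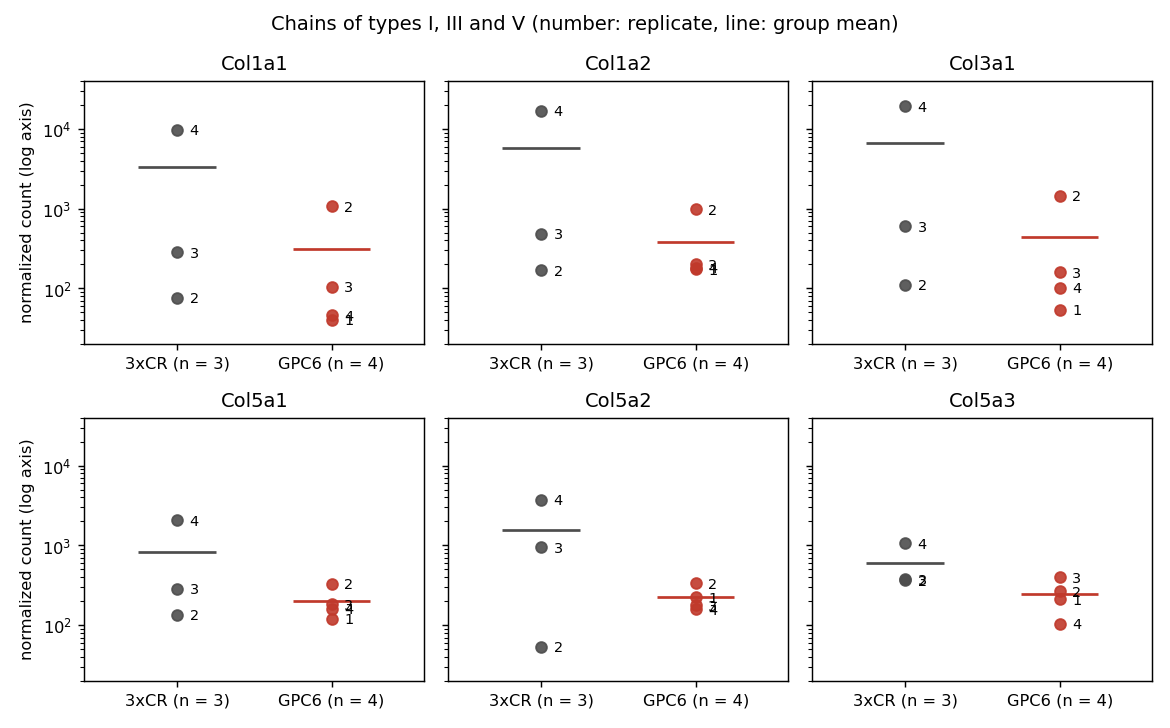
Normalized counts on a log axis of the chains of collagen types I, III and V in 3xCR (n = 3, dark) and GPC6 (n = 4, red) tumors. Points are libraries with their replicate number and lines are group means. 3xCR replicate 4 is highest in all 6 panels, and 3xCR replicate 3 lies inside the GPC6 range in every panel but that of Col5a2.

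By limma on log2(normalized count + 1), the GPC6 against 3xCR differences of these chains did not pass the test. The log2 fold change of Col3a1 was -2.52 (SE 1.76, adjusted p = 0.731), that of Col1a1 -2.30 (SE 1.74, adjusted p = 0.738) and that of Col1a2 -1.98 (SE 1.46, adjusted p = 0.735). They were -0.45, -0.29 and -0.02 without 3xCR replicate 4. With edgeR on recovered reads they were -3.91, -3.41 and -3.91, with an adjusted p of 0.603 each. Group means of Col1a1 were 3373 ± 5529 (SD, n = 3) normalized counts in 3xCR and 316 ± 505 (SD, n = 4) in GPC6, so the spread within each group exceeded the mean. In bulk tissue, fewer cells of a type and less RNA per cell cannot be told apart.

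Type V collagen, which is built into type I fibers and limits their width, had a smaller spread. Normalized Col5a1 counts (chr2:27886425-28039514, + strand) were 135, 285 and 2080.2 in 3xCR and 121, 331, 183 and 160 in GPC6. Normalized Col5a2 counts (chr1:45374321-45503282, - strand, beside Col3a1) were 53.2, 952 and 3717 in 3xCR and 223, 335, 178 and 157 in GPC6. Normalized Col5a3 counts (chr9:20770050-20815067, - strand) were 367, 379 and 1062 in 3xCR and 212, 268, 399 and 104 in GPC6. For Col5a3 all 3xCR libraries lay above 3 of the 4 GPC6 libraries, and only GPC6 replicate 3 reached into their range. Its log2 fold change was -1.26 (SE 0.54, unadjusted p = 0.049, adjusted p = 0.730 by limma), and -0.76 (unadjusted p = 0.192) without 3xCR replicate 4. The log2 fold change of Col5a1 was -1.22 (SE 0.86) and that of Col5a2 -1.42 (SE 1.23), with adjusted p = 0.731 and 0.754. Leaving out 3xCR replicate 4 gave -0.09 and -0.08, and edgeR gave -2.06 and -2.82.

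Across the family, limma called 0 of the 39 tested collagen genes at an adjusted p under 0.05, as it called 0 of 14782 genes (0% of all). Col5a3 was the 1 collagen gene at an unadjusted p under 0.05, lower in GPC6, against 284 genes lower (1.92%) and 405 higher (2.74%) in the whole table. No collagen gene had groups that did not overlap, against 934 of the genes tested (6.32%). With edgeR, 0 of 39 collagen genes had an adjusted p under 0.05, as 0% of all genes, and 6 had an unadjusted one against 6.7%. DESeq2 gave no p for Col1a1, Col1a2, Col3a1, Col6a3 and Col7a1 and an adjusted p for 16 of the 39, so its count says nothing of the others. Of these 16 it called 0 (0.0998% of all genes with an adjusted p), and 7 of the 34 collagen genes with a p had one under 0.05, against 12.2%. The limma count of 1 was 8 without 3xCR replicate 2, against 7.67% of all genes. It was 2 without GPC6 replicate 2 (9.46% of all genes) or without GPC6 replicate 3 (2.6%), 1 without GPC6 replicate 1 (3.17%), and 0 without 3xCR replicate 3 (2.55%) or without GPC6 replicate 4 (7.84%). Without 3xCR replicate 4 it was again 1 (0.819% of all genes), here Col9a1 in place of Col5a3, a gene named after its values were seen, with a log2 fold change of -2.42 (unadjusted p = 0.012, adjusted p = 0.999 by limma).

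Most estimates were negative in the fibrillar and other classes, and those of type IV were of either sign. Of the tested members, 10 of 11 fibrillar, 3 of 5 type IV and 20 of 23 other collagen genes had a negative log2 fold change, with medians of -1.22, -0.02 and -0.89, beside a median of -0.02 over all genes tested. Without 3xCR replicate 4 the medians were -0.42, 0.13 and 0.01, and 11 of 11, 1 of 5 and 11 of 23 were negative, beside -0.01 over all genes. The type IV median was 0.59 without GPC6 replicate 1, with 5 of 5 positive, and -0.30 without GPC6 replicate 2, with 5 of 5 negative. Over all 39 members the median was -0.81 with all 7 libraries and -0.09 without 3xCR replicate 4. The plot of fold changes with and without 3xCR replicate 4 shows the shift gene by gene.

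**Figure D3:**
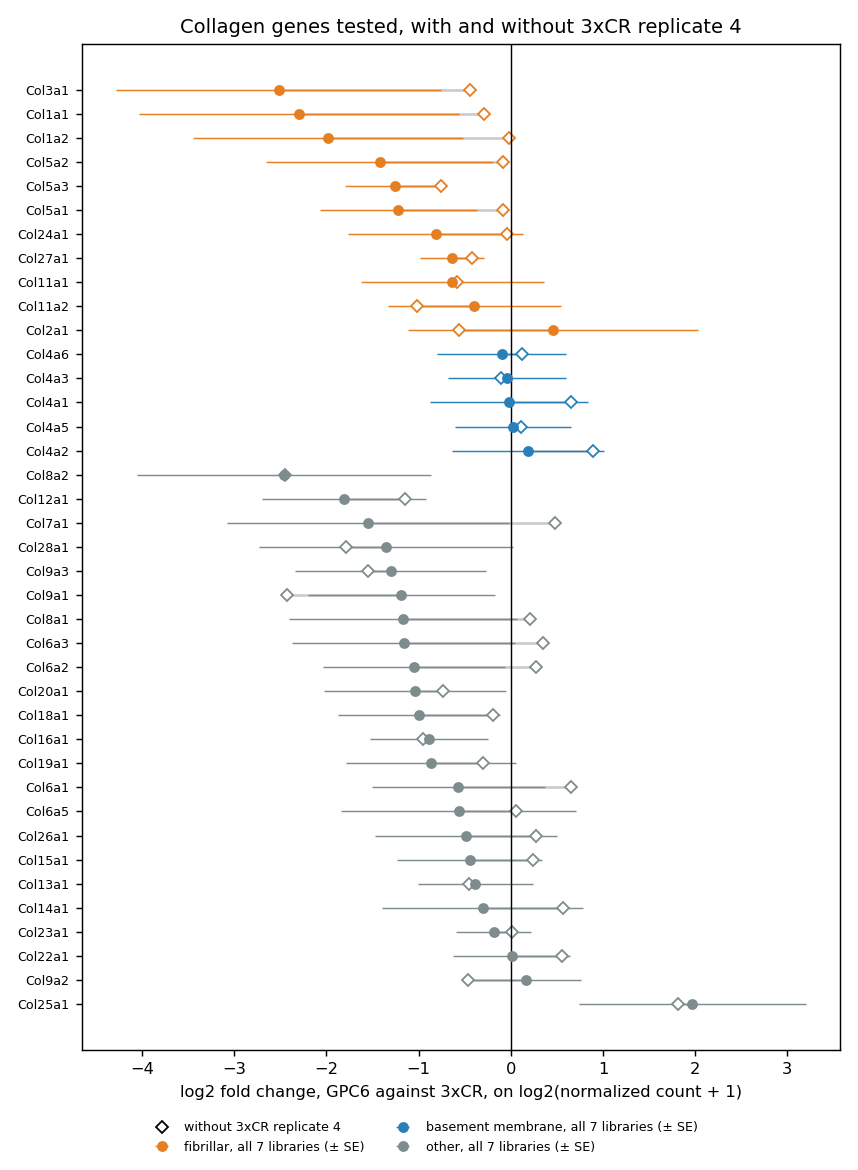
Log2 fold change of GPC6 against 3xCR (x axis, on log2(normalized count + 1)) for the 39 tested collagen genes (y axis), filled points with SE from all 7 libraries and open diamonds without 3xCR replicate 4. Type I, III and V chains move from between -2.52 and -1.22 to between -0.76 and -0.02, and type VI chains pass from negative to positive values.

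Of the remaining fibrillar chains, Col2a1, Col11a1 and Col11a2 were highest in other libraries than type I, and Col24a1 and Col27a1 were again highest in 3xCR replicate 4. Col2a1, the chain of cartilage type II collagen (chr15:97975602-98004695, - strand), had normalized counts of 23.0, 253 and 8.29 in 3xCR and 4.64, 26.7, 222 and 224 in GPC6. It was high in 1 library of 3xCR and 2 of GPC6 and at most 26.7 in the others, and 3xCR replicate 4, the highest for type I, was among its lowest. Its log2 fold change was 0.46 (SE 1.57, adjusted p = 0.940) and -0.56 without 3xCR replicate 4. Type XI chains co-assemble with type II and V chains. Col11a1 had 554, 1587 and 1048 normalized counts in 3xCR and 85.0, 2032, 923 and 964 in GPC6, and Col11a2 had 605, 370.2 and 129.8 in 3xCR and 230.3, 1035, 228 and 54.5 in GPC6. Both were highest in GPC6 replicate 2. These and the other members named below without a log2 fold change were chosen after their values were seen. Col27a1 ranged from 51.4 to 141 and Col24a1 from 1.55 to 31.8 normalized counts, the highest value of each being that of 3xCR replicate 4.

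Marker genes of fibroblasts, the main makers of type I and III collagen, were read beside these values. Of 13 such genes, 7 were highest in 3xCR replicate 4, and their sum was 2847, 2602 and 7709 normalized counts in 3xCR and 1597, 3564, 2329 and 1337 in GPC6. Normalized Dcn counts were 136, 83.7 and 1046 in 3xCR and 105, 396, 82.5 and 65.8 in GPC6, with the same pair of highest libraries as Col1a1. Dpt was at 178 normalized counts in 3xCR replicate 4, at most 5.32 elsewhere, and at 0 in GPC6 replicates 1, 2 and 4. Slc6a13 was at 4.14 in 3xCR replicate 4, below the other 6 libraries, and Slc47a1 was at 0 in GPC6 replicate 2. The sum of 13 mural cell genes was 1767, 2529 and 4424 in 3xCR and 1543, 2178, 2113 and 1805 in GPC6. Of these 13, 3 were highest in 3xCR replicate 4, namely Tagln, Acta2 and Pdgfrb, the last at 971 there and 97.7 to 413 elsewhere. By contrast Rgs5, Vtn, Notch3, Atp13a5 and Higd1b were lowest in that library, with Notch3 at 173 there and 215 to 422 elsewhere. The sum of 14 endothelial genes varied less, from 2384 to 4456. The sum of 10 microglia genes was 30013 to 53889 in 3xCR, highest in replicate 4, and 15623 to 26878 in GPC6. Their part in the collagen differences was not tested.

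The type IV genes stand in the genome as head-to-head pairs, each transcribed outward from neighboring starts, and this class showed no excess in 3xCR replicate 4 like that of type I. Col4a1 (chr8:11198423-11312826, - strand) and Col4a2 (chr8:11312805-11449287, + strand) encode the chains of the common basement membrane network, and their annotated exons overlap at the start by 22 bases at chr8:11312805-11312826. The shared stretch is shown on the strand of each gene, 5′ to 3′, with GGGCGG or its complement in capitals.
Col4a2: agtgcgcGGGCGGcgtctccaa
Col4a1: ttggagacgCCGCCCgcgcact
The starts of Col4a3 and Col4a4 lie 72 bases apart on chromosome 1 and those of Col4a5 and Col4a6 1309 bases apart on chromosome X. Reads from the 22 shared bases are 0.295% of the exon length of Col4a1 and could be counted to either gene.

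Normalized Col4a1 counts were 439, 2196 and 3942 in 3xCR and 535, 3580.4, 2279.8 and 1299 in GPC6. Normalized Col4a2 counts were 226, 1090.2 and 2151 in 3xCR and 359, 1856, 1405 and 779 in GPC6. Both chains had the same order of libraries, lowest in 3xCR replicate 2 and highest in 3xCR replicate 4, with the groups wholly mixed. Their log2 fold changes were -0.02 (SE 0.86) and 0.19 (SE 0.83), with adjusted p = 0.997 and 0.955 by limma, and the sign of each depended on the alternative used. Without 3xCR replicate 4 they were 0.65 and 0.89.

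Col4a5 (chrX:141475385-141689234, + strand), mutated in Alport syndrome of kidney and ear, had 244, 369 and 363 normalized counts in 3xCR and 91.2, 381, 503 and 634 in GPC6. Col4a6 had 162, 189.8 and 282 in 3xCR and 44.8, 290.5, 289 and 354 in GPC6. Both were lowest in GPC6 replicate 1 and highest in GPC6 replicate 4. The log2 fold change of Col4a5 was 0.02 (SE 0.63, adjusted p = 0.994). The ratio of Col4a5 to Col4a6 per kilobase stayed between 1.53 and 2.41 in the 7 libraries. The pair of Col4a3 and Col4a4, chains of the kidney filter, was near the floor, at 6.18 to 28.7 and 0 to 17.7 normalized counts. The log2 fold change of Col4a3 was -0.04 (SE 0.64, adjusted p = 0.988), Col4a4 was not tested, and 5.65% of the exon length of Col4a3 overlaps a transcript on the other strand.

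Type VI collagen, which forms beaded filaments at the cell surface, had an excess in 3xCR replicate 4 that the main type IV chains lacked. Normalized Col6a1 counts (chr10:76708792-76726168, - strand) were 189, 472 and 3823 in 3xCR and 424, 698, 701 and 237 in GPC6. Normalized Col6a2 counts (chr10:76595762-76623630, - strand) were 105, 318 and 2869 in 3xCR and 182, 344, 271 and 141 in GPC6. Normalized Col6a3 counts (chr1:90765923-90843971, - strand) were 37.8, 94.9 and 1410 in 3xCR and 92.7, 203, 67.4 and 26.7 in GPC6. For each chain 3xCR replicate 4 was 5.46 to 8.34 times the next library, whereas Col4a1 and Col4a2 were there 1.10 and 1.16 times the next. 3xCR replicate 3 lay inside the GPC6 range for all 3 chains. The log2 fold changes were -0.57 (SE 0.94) for Col6a1, -1.05 (SE 0.99) for Col6a2 and -1.16 (SE 1.21) for Col6a3, with adjusted p of 0.866, 0.769 and 0.791, and without 3xCR replicate 4 they were 0.65, 0.27 and 0.35. With edgeR they were -1.54, -2.22 and -2.39. Col6a4, Col6a5 and Col6a6, the alternatives to the third chain, stayed at 0.988 to 53.2 normalized counts.

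Collagens that span or bridge the fiber and the membrane differed in which library was high. Col18a1 (chr10:77052178-77166548, - strand), a basement membrane proteoglycan that contains endostatin, had 324, 1478 and 3671 normalized counts in 3xCR and 239.6, 1382, 939 and 431 in GPC6. Col16a1 (chr4:130047840-130099283, + strand), a fibril-associated collagen, had 1666, 2885 and 1901 in 3xCR and 331, 2600, 1522 and 1242 in GPC6. Col16a1 thus had no excess in 3xCR replicate 4, and 1 GPC6 library reached into the 3xCR range. The log2 fold change of Col18a1 was -0.996 (SE 0.88, adjusted p = 0.759) and -0.19 without 3xCR replicate 4, and that of Col16a1 was -0.89 (SE 0.64, adjusted p = 0.732) and -0.96 without it. Col7a1, the anchoring fibril of skin, had 1029 normalized counts in 3xCR replicate 4 and 7.73 to 68.2 elsewhere. Col12a1, which coats type I fibers, had 178, 432 and 1093 in 3xCR and 34.0, 89.9, 377 and 203 in GPC6.

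Type VIII chains form the short-chain network under endothelia such as that of the cornea. Normalized Col8a1 counts (chr16:57624258-57754737, - strand) were 19.7, 102 and 805 in 3xCR and 81.9, 164, 22.2 and 24.7 in GPC6. Normalized Col8a2 counts (chr4:126286793-126314330, + strand) were 34.5, 56.7 and 45.6 in 3xCR and 144, 0, 15.1 and 1.03 in GPC6. For Col8a2 the 3xCR libraries lay close together while the GPC6 libraries held both the highest and the lowest values. The count of 0 in GPC6 replicate 2 allows up to 2.96 normalized counts. The log2 fold change of Col8a1 was -1.17 (SE 1.24, adjusted p = 0.796) and 0.21 without 3xCR replicate 4. That of Col8a2 was -2.46 (SE 1.59, adjusted p = 0.730) and -2.45 without it. With edgeR, which compares mean counts, they were -2.07 and -0.22, and the mean normalized counts of Col8a2 were 45.6 ± 11.1 (SD, n = 3) in 3xCR and 40.0 ± 69.5 (SD, n = 4) in GPC6. The 10 choroid plexus genes summed to 236, 3919 and 3745 normalized counts in 3xCR and 12835, 402, 153 and 75.1 in GPC6, so their highest library was that of Col8a2 too, and 4 of these genes were at 0 in at least 1 library. Their part in the Col8a2 values was not tested.

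Col25a1 (chr3:130131501-130599877, + strand), a transmembrane collagen of neurons found in amyloid plaques, had the largest positive estimate of the family. Its normalized counts were 40.6, 11.2 and 15.2 in 3xCR and 573, 15.8, 169 and 22.6 in GPC6. GPC6 replicates 1 and 3 were above all other libraries, while GPC6 replicates 2 and 4 lay inside the 3xCR range. Its log2 fold change was 1.97 (SE 1.23, adjusted p = 0.730 by limma) and 1.81 without 3xCR replicate 4, and with edgeR it was 3.08. The same pair of GPC6 libraries held the most pan-neuronal RNA, with summed counts of 67112 and 37190 against 8202 to 15199 in the other 5 libraries. Whether this had a part in the Col25a1 values was not tested.

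The type IX chains, fibril-associated partners of type II, were present in every library. Normalized Col9a3 counts were 1041, 618 and 477 in 3xCR and 295, 1860.4, 187 and 53.5 in GPC6. Col9a1 had 162, 494 and 20.7 in 3xCR and 24.7, 60.3, 42.6 and 113 in GPC6, and Col9a2 had 226, 166 and 51.1 in 3xCR and 219, 174, 142 and 70.0 in GPC6. Col9a3 shares 6.07% of its exon length with Tcfl5 on the other strand. Col20a1 had 312, 502 and 739 in 3xCR and 127, 1718, 199 and 72.0 in GPC6, and was highest in the same library as Col9a3, Col11a1 and Col11a2. That library, GPC6 replicate 2, also had the highest sum of oligodendrocyte precursor genes, 104343 normalized counts against 22690 to 77156 elsewhere. Its part in these collagen levels was not tested.

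Per kilobase of exon, the leading collagen was a different gene in most libraries. Col9a3 led in 3xCR replicate 2 (270.1 normalized counts per kilobase) and GPC6 replicate 2 (483), and Col16a1 in 3xCR replicate 3 (427) and GPC6 replicate 4 (184). Col3a1 led in 3xCR replicate 4 (1965), Col6a1 in GPC6 replicate 1 (96.7) and Col4a1 in GPC6 replicate 3 (305). In mean level per kilobase over the 7 libraries the order began with Col3a1 (317), Col4a1 (273), Col16a1 (257), Col1a1 (248) and Col1a2 (218). Without 3xCR replicate 4 it began with Col16a1 (253), Col4a1 (231), Col9a3 (175) and Col4a2 (144), and Col3a1 (42.1), Col1a1 (41.3) and Col1a2 (29.5) ranked 13, 14 and 17 of the 44. The 7-library neighbors did not differ beyond their spread, since the SD of Col3a1 was 1114 in 3xCR and 68.8 in GPC6.

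The makeup of collagen RNA was compared as shares of reads. Collagen genes took 0.0769%, 0.163% and 0.694% of all reads on genes in 3xCR and 0.0493%, 0.226%, 0.123% and 0.0794% in GPC6. The means were 0.311% ± 0.334 (SD, n = 3) and 0.120% ± 0.077 (SD, n = 4), with two-sided exact permutation p = 0.457 (adjusted p = 0.610 over 4 shares). Without 3xCR replicate 4 both means were 0.120%. An exact permutation test of 3 against 4 libraries cannot go below p = 0.057.

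Within collagen reads, type IV genes had 13.7%, 22.5% and 8.47% in 3xCR and 19.1%, 26.0%, 36.2% and 38.1% in GPC6. Only GPC6 replicate 1 lay inside the 3xCR range. The means were 14.9% ± 7.08 (SD, n = 3) and 29.9% ± 8.93 (SD, n = 4), with exact permutation p = 0.114 (adjusted p = 0.343), and 18.1% against 29.9% (exact permutation p = 0.267) without 3xCR replicate 4. Fibrillar genes had 27.4%, 30.8% and 67.8% in 3xCR and 22.1%, 32.1%, 21.7% and 25.6% in GPC6, with means of 42.0% ± 22.4 and 25.4% ± 4.83 (exact permutation p = 0.171, adjusted p = 0.343). Without 3xCR replicate 4 the 3xCR mean was 29.1%. The other types had 43.1% ± 17.8 in 3xCR and 44.7% ± 9.76 in GPC6 (exact permutation p = 0.971). Collagen reads per library ran from 3547 to 57743, so that the widest exact binomial 95% interval of a class share was 57.1% to 60.4% (other types, GPC6 replicate 1). Such intervals cover counting error only. The 3 genes Col1a1, Col1a2 and Col3a1 alone held 57.5% of the collagen reads in 3xCR replicate 4 and 3.76% to 14.9% in the other 6 libraries.

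**Figure D4:**
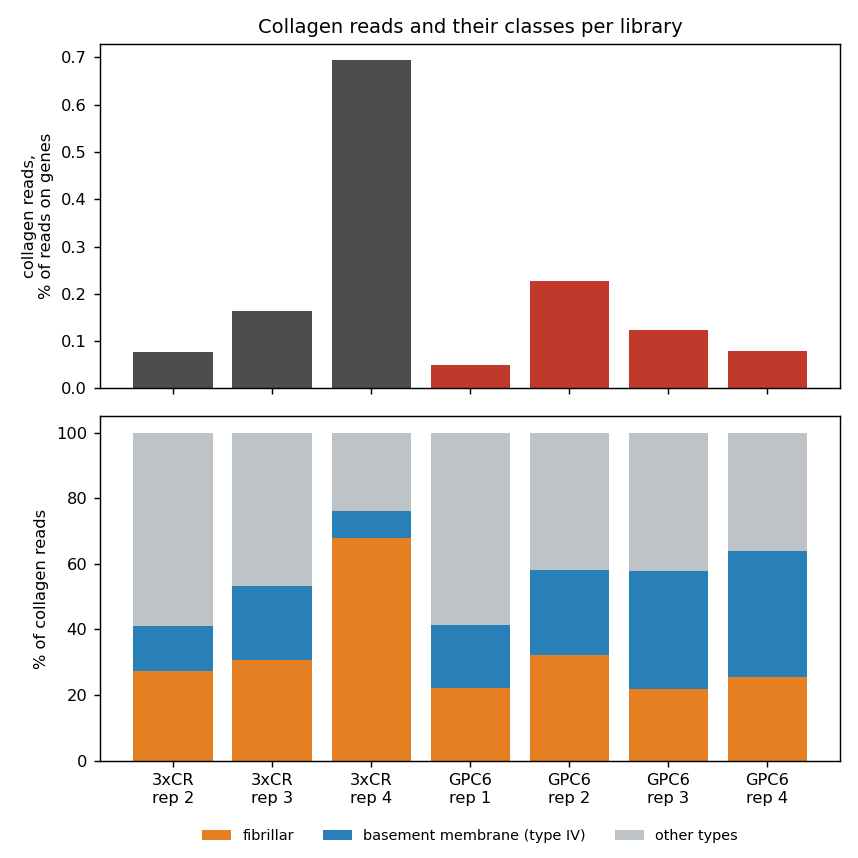
Collagen reads as a percent of all reads on genes (top, bars by library, dark 3xCR and red GPC6) and the percent of collagen reads on fibrillar, type IV and other collagen genes (bottom, stacked). 3xCR replicate 4 stands at 0.694% of reads with 67.8% of them fibrillar, while the type IV share is 8.47% to 22.5% in 3xCR and 19.1% to 38.1% in GPC6.

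Chains that assemble together were compared as ratios per kilobase of exon, which are free of the library's scale. Type I collagen holds more of the Col1a1 chain than of the Col1a2 chain in its usual form. The ratio of Col1a1 to Col1a2 RNA was 0.861, 1.11 and 1.10 in 3xCR and 0.436, 2.06, 0.988 and 0.484 in GPC6, with means of 1.02 ± 0.141 and 0.993 ± 0.757 (SD, exact permutation p = 0.914). Thus the ratio in the library with the most type I RNA was close to that of 3xCR replicate 3. The level of such a ratio depends on the exon length used, here that of all annotated exons of a gene. As a ratio of reads without length, the means were 0.541 in 3xCR and 0.525 in GPC6.

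The ratio of Col4a1 to Col4a2 was 1.72, 1.79 and 1.63 in 3xCR and 1.32, 1.71, 1.44 and 1.48 in GPC6. Means were 1.71 ± 0.081 and 1.49 ± 0.163 (SD, exact permutation p = 0.114, adjusted p = 0.171 over 3 ratios). The ratio of Col6a1 to Col6a2 was 3.42, 2.82 and 2.53 in 3xCR and 4.41, 3.86, 4.92 and 3.19 in GPC6, with means of 2.92 ± 0.450 and 4.10 ± 0.744 (SD, exact permutation p = 0.114, adjusted p = 0.171). For both, 1 GPC6 library lay inside the 3xCR range. As ratios of reads without length, the 3xCR and GPC6 means were 1.93 and 1.68 for Col4a1 to Col4a2. They were 1.54 and 2.15 for Col6a1 to Col6a2. The ratio of Col5a1 to Col5a2 moved much more, from 0.338 to 2.88, and that of Col6a3 to Col6a1 lay between 0.0352 and 0.135.

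**Figure D5:**
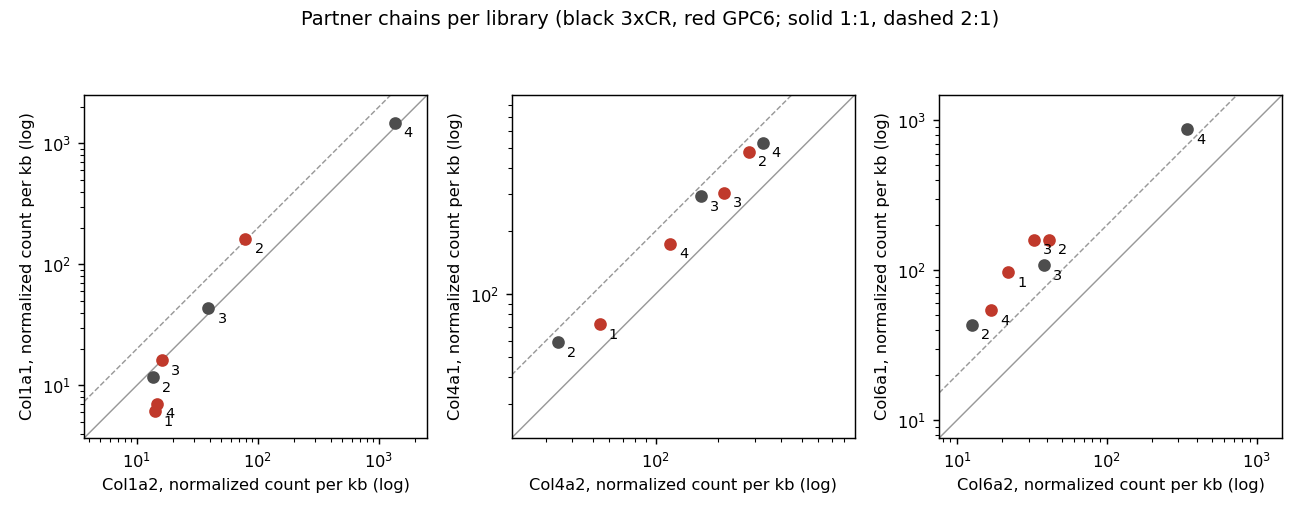
Partner chains of types I, IV and VI in each library, in normalized counts per kilobase of exon on log axes, with 3xCR in black and GPC6 in red and the replicate number beside each point. The solid line is a ratio of 1 and the dashed line a ratio of 2. Type IV points stay between the lines, with ratios of 1.32 to 1.79, while type I points spread from 0.436 to 2.06.

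Genes that make, link, bind and degrade collagen were read from 5 lists with 66 genes, of which 62 were tested. Among these, 12 had a positive and 50 a negative log2 fold change, with a median of -0.51, beside -0.02 over all genes. By limma 0 passed at an adjusted p under 0.05, and 3 were lower and 0 higher at an unadjusted p under 0.05, against 1.92% lower and 2.74% higher over all genes. The groups did not overlap for 5 of the 62 (Fkbp10, Tmem38b, Loxl1, Ddr2 and Mmp2), against 6.32% of all genes tested. As with the collagens, 3xCR replicate 4 was the highest library for 41 of the 62 (66.1%), against 23.9% of all genes, and without it 37 were negative, with a median of -0.14.

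In the list for chain folding and hydroxylation, 3 of 22 tested genes were positive and 19 negative. Serpinh1, the collagen chaperone HSP47, had 579.9, 1155 and 2593 normalized counts in 3xCR and 190.1, 554, 805 and 313 in GPC6. Its log2 fold change was -1.57 (SE 0.62, unadjusted p = 0.036, adjusted p = 0.730) and -1.02 without 3xCR replicate 4. P4hb, a subunit of prolyl hydroxylase and the most abundant of the list, had a log2 fold change of -0.50 (SE 0.48), and P4ha3, a catalytic subunit, the largest of the list, 0.33 (SE 0.51). Of the propeptide proteases and their enhancers, 3 of 8 were positive, from Pcolce at -1.31 (SE 0.76) to Adamts3 at 0.95 (SE 0.54), with Bmp1, the C-proteinase, at -0.76 (SE 0.46). None of these passed the test.

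Crosslinking and assembly genes had 2 of 13 positive. Loxl1, a lysyl oxidase, had 107, 103 and 969.6 normalized counts in 3xCR and 35.5, 89.9, 88.7 and 38.1 in GPC6, so the groups did not overlap, although 2 of the 3xCR libraries were close to the highest GPC6 library. Its log2 fold change was -1.93 (SE 0.83, unadjusted p = 0.048, adjusted p = 0.730) and -0.86 without 3xCR replicate 4. Sparc, the most abundant of this list, was at -0.26 (SE 0.39) and Fn1, fibronectin, at 0.41 (SE 0.72). Of the receptors, 3 of 11 were positive, from Ddr2, a tyrosine kinase that binds fibrillar collagen, at -1.08 (SE 0.63) to Adgrg1, the type III collagen receptor GPR56, at 0.30 (SE 0.37), with Itgb1 at -0.53 (SE 0.46).

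Among the breakdown genes, 1 of 8 was positive. Mmp2, gelatinase A, which cuts denatured collagen and type IV, had 649.5, 483 and 796 normalized counts in 3xCR and 184, 273, 311 and 189 in GPC6. Every 3xCR library was above every GPC6 library, and no library stood apart from its group. Its log2 fold change was -1.43 (SE 0.29, unadjusted p = 0.00119, adjusted p = 0.730 by limma), and -1.26 without 3xCR replicate 4. With DESeq2 it was -1.41 (adjusted p = 0.0236), while edgeR gave an adjusted p of 0.603. DESeq2 called 0.0998% of all genes for which it gave an adjusted p. Mmp13 was at 0.21 (SE 1.86), with 2 libraries at 0, and Ctsb, a lysosomal protease, at -0.63 (SE 0.33).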

How the data were processed

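Bulk RNA-Seq libraries of 3 3xCR and 4 GPC6 endpoint tumors were grouped by their labels. Stranded mRNA libraries were aligned by the authors to mm10 with STAR 2.5.0a and counted with Rsamtools and GenomicFeatures, and the counts were normalized with DESeq2 1.20.0. The deposited values are normalized counts, a signal per gene on a linear scale that is not corrected for length. How reads matching more than 1 gene were assigned, and whether counting used strand, is not given in the sources used here. All 7 columns were used and 0 were left out. Of 19282 entries, 25 with names turned into dates (0.254% to 0.361% of reads) were left out.

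Whole reads were recovered from the value of 1 read in each library, 0.548 to 1.55 normalized counts, and 100% of values came within 0.01 of a whole read. Total reads of 7197692 to 18879762 per library set the precision, and low members are limited by it most. Exon lengths and positions came from GENCODE on GRCm38 and promoter windows from RefSeq.

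The test was that of limma 3.58.1, run in R 4.3.3 with a trended variance on log2(normalized count + 1), two-sided. P-values were Benjamini-Hochberg adjusted over the 14782 genes with a mean of at least 10. Fold changes on this log scale understate those of low genes. limma was the main test because the deposited values are normalized counts, although whole reads could be recovered from them. The plan named edgeR for values that turned out to be counts. On the recovered reads edgeR also called 0 of 14782 genes at an adjusted p under 0.05. Shares and ratios were compared by exact permutation tests over libraries. Alternatives were edgeR 4.0.16 (quasi-likelihood), DESeq2 1.42.0 and voom on the recovered reads, other pseudocounts, filters and scalings, no variance trend, library weights, a replicate block, and leaving out each library. limma, edgeR, DESeq2 and voom were tested on simulated data. Where nothing says that brains came from separate litters, p-values measure the spread between these libraries.

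Replicate numbers were not treated as pairs. Deviations of same-numbered libraries correlated at -0.194, 0.118 and 0.296, which cannot decide whether such libraries shared a litter or batch. The labels and the methods differ in RNA amount and kit, which entered no calculation.

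Genes were named by rule: the 3 of highest level per kilobase in each class, the 3 largest increases and 3 largest decreases, members at an unadjusted p under 0.05 or with groups that did not overlap, and partner chains, with the top, largest and smallest of each list of collagen-handling genes. Lists also covered fibroblast, mural, endothelial, neuronal, astrocyte, oligodendrocyte precursor, microglia, choroid plexus and proliferation markers. Members and lists were chosen with earlier results of these data known.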

Additional observations from a re-analysis of the deposited data

Results flagged for a closer look

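The Col1a2 value of GPC6 replicate 2, 984 normalized counts, lay far from the other 3 GPC6 libraries, which held 175 to 202. By Dixon's criterion, on log2(normalized count + 1) for genes, it was the only such value among 27 quantities examined, where chance alone gives about 1.35. On normalized counts without the log, a scale added after the values were seen, 4 of 20 named genes had such a GPC6 library: Col1a1 (1073), Col1a2 and Col3a1 (1452) in replicate 2 and Col8a2 (144) in replicate 1. 3xCR, with 3 libraries, is too small for this criterion. Without GPC6 replicate 2 the log2 fold change of Col1a2 was -2.58.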

How the results depend on the processing

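Of 359 values of the 19 named and tested collagen genes under alternatives, 316 kept direction and side of the threshold, 8 kept direction with DESeq2 but had no adjusted p, 1 moved past it and 34 changed sign, 21 of these on leaving out a library. With library weights (arrayWeights), which put 8.71 on 3xCR replicate 3 and 4.47 on GPC6 replicate 3 against 0.30 to 0.85 elsewhere, the adjusted p was under 0.05 for 1962 genes and the unadjusted p for 5105, of which 11 were collagens, and 2 collagen genes passed adjusted, Col25a1 (log2 fold change 3.23, adjusted p = 0.0290) and Col9a1 (-3.04, adjusted p = 0.0299). DESeq2 gave 9, 1793 and 7, edgeR 6 collagens, and voom, scaling to an equal total and a variance without trend 0. With the replicate block 3 collagens and 678 genes were at an unadjusted p under 0.05 and 0 genes at an adjusted one. Col4a1 was then 0.49 and Col4a3 0.23, and whether the replicate numbers pair the libraries is not known. The cause was not tested.

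Log2 fold changes near 0 changed sign. Col2a1 was -0.21 with library weights, Col4a1 0.093 with these and 0.031 with equal totals, and Col6a1 0.38 with library weights. Col4a2 was -0.076 with edgeR and -0.057 with DESeq2. Col4a3 was 0.18 with edgeR, 0.21 with DESeq2, 0.00049 with a pseudocount of 5 and 0.00051 with equal totals. Col4a5 was -0.031 with equal upper quartiles.

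Leaving out each library gave 121 to 1399 genes and 0 to 8 collagens at an unadjusted p under 0.05. The median of the other types ran from -1.09 to 0.010 and that of type IV from -0.30 to 0.59. The GPC6 minus 3xCR difference of the share of the other types ran from -8.06 to 9.50 percentage points. That of the type IV share ran from 11.8 to 18.8, and that of the Col1a1 to Col1a2 ratio from -0.388 to 0.155. Log2 fold changes ran from -0.56 to 1.82 for Col2a1, -0.93 to 0.65 for Col4a1, -0.73 to 0.89 for Col4a2, -0.45 to 0.23 for Col4a3, -0.30 to 0.63 for Col4a5, -1.51 to 0.65 for Col6a1, -2.11 to 0.27 for Col6a2, -2.25 to 0.35 for Col6a3 and -2.43 to 0.21 for Col8a1. The upper ends of Col6a1, Col6a2, Col6a3 and Col8a1 and of the median of the other types came without 3xCR replicate 4.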
